A study of Mus musculus with 2 samples.

Results

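The loci described here are the microRNA genes at the start of the imprinted Dlk1-Dio3 domain on mouse chromosome 12, from Mir673 to Mir432. They were chosen by name and position, as 10 of the 1973 microRNA loci in the count tables. Measured levels were not part of that rule, though earlier results of these data were known. A locus is called detected here when each library holds 10 or more of its reads, which was the case for 9 of the 10. Mir432 had 0 counts in both libraries.

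Small RNA was sequenced from hindbrain of mouse embryos of strain B6NCrl at embryonic day 14.5, in 1 group of 2 replicate libraries that held RNA under 30 nucleotides. Replicate 1 came from tissue collected on 24 July 2014 and replicate 2 from tissue collected on 30 July 2014, so collection day and replicate cannot be told apart. The labels call each sample a single hindbrain but also give its sex as pooled, and the samples share a donor label. SD therefore measures only the spread between these libraries, which may not come from separate animals. The binomial and Fisher's exact tests below allow for counting error of the reads alone, so their p-values do not measure that spread.

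In the Dlk1-Dio3 domain the parental chromosomes express different genes. The maternal chromosome makes long noncoding RNAs (Meg3, an antisense RNA of Rtl1, Rian and Mirg) and the microRNAs cut from them, while the paternal chromosome expresses the protein genes Dlk1, Rtl1 and Dio3. A microRNA is cut from a hairpin in its precursor and guides silencing of messenger RNAs that pair with its seed. MicroRNAs transcribed antisense to Rtl1, a retrotransposon-derived gene, pair with its messenger RNA along their whole length, and several of them, miR-127 among them, are known for guiding its cleavage.

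All 10 hairpins lie on the plus strand of chromosome 12 (GRCm38). The group starts with Mir673 at chr12:109571990-109572080 and Mir493 at chr12:109580233-109580315, which overlap no other annotated gene. Mir337 at chr12:109585789-109585885, Mir540 at chr12:109586080-109586146 and Mir665 at chr12:109586314-109586407 stand close together, with gaps of 194 and 167 bases. Of these 3, Mir337 alone overlaps an annotated gene, Mir3544 on the minus strand. Mir431 at chr12:109590447-109590537, Mir433 at chr12:109591715-109591838, Mir127 at chr12:109592846-109592915, Mir434 at chr12:109594506-109594599 and Mir432 at chr12:109594956-109595030 lie wholly opposite the coding sequence of Rtl1. Rtl1 itself spans 109589193 to 109600330 on the minus strand. Meg3 ends at 109571726, before Mir673, and Rian starts at 109603940, beyond Mir432, and GENCODE M21 annotates no plus-strand host transcript over the group.

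The mature sequences (RefSeq, GRCm38.p6) show what divides the 10 loci. All 10 matched the RefSeq table, which gave 19 mature sequences, with both arms of 9 hairpins and 1 arm of Mir432. Those of the Rtl1 side are shown because each is an exact reverse complement of the Rtl1 messenger RNA, and those of Mir337 because it was the most abundant locus outside Rtl1. Capitals mark the seed, bases 2 to 8 from the 5′ end.
miR-431-5p: uGUCUUGCaggccgucaugca
miR-431-3p: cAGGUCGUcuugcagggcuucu
miR-433-5p: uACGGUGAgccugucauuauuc
miR-433-3p: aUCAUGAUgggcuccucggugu
miR-127-5p: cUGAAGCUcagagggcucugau
miR-127-3p: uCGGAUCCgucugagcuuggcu
miR-434-5p: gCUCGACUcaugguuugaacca
miR-434-3p: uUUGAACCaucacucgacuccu
miR-432: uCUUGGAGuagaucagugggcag
miR-337-5p: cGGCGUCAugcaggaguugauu
miR-337-3p: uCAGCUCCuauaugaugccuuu

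All 9 mature sequences and all 5 whole hairpins of the Rtl1 side had their reverse complement in the 6358-base Rtl1 transcript of GENCODE M21, and 0 of the other 10 mature sequences did. That match follows from their position opposite the Rtl1 coding exon. The stretch of Rtl1 that pairs with miR-127-3p, and the one that pairs with miR-434-3p, are shown 5′ to 3′ with the complement of the seed in capitals.
Rtl1 opposite miR-127-3p: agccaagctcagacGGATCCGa
Rtl1 opposite miR-434-3p: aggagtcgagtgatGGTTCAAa

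The 19 mature sequences carried 19 different seeds, so the group holds no pair of loci with a common seed. Of the 19, 17 had a seed found at no other locus among the 1738 mature mouse sequences of the table, which is not complete. Over the whole table, 32% of mature sequences shared their seed with another locus. The exceptions were miR-673-5p, whose seed is also that of miR-6985-3p, and miR-540-3p, whose seed is also that of miR-6915-5p. Mir6985 had 3 and 15 counts in replicates 1 and 2 (named after its values were seen), and Mir6915 was not analysed here.

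The hairpins themselves had no close copy. None of the 10 shared a run of 20 bases with another hairpin, against 104 of the 869 hairpins of the tables with a RefSeq sequence. Reads with several map positions made up 33.9% (replicate 1) and 34.3% (replicate 2) of the sequenced reads and were left without a locus. Mir434, Mir431 and Mir540 did repeat a stretch within the hairpin, of 13, 10 and 10 bases, where the median longest repeat over the 869 hairpins was 6 bases and 5.29% had one of at least 9. The repeats are shown in capitals because those of Mir434 and Mir431 fall in both mature arms, covering 12 bases of miR-434-5p and 10 of miR-434-3p, and 10 bases of each arm of Mir431.
Mir434 hairpin: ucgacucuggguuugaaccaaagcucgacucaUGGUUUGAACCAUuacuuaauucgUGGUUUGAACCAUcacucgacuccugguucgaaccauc
Mir431 hairpin: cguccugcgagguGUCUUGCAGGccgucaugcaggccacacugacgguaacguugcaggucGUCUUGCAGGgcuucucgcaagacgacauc
Mir540 hairpin: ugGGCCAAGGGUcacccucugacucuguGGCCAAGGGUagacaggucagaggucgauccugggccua

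The predicted folding energy of the hairpins (RNAfold) ran from -61.0 kcal/mol per 100 bases for Mir540 to -31.6 for Mir432, with a median of -41.3 over the 869 hairpins. Mir433 with -36.1 and Mir434 with -39.8 also lay above that median, and the other 7 lay below it, Mir127 with -50.1. The level of a locus is given below as CPM, its gene-strand read count per 1000000 gene-strand counts on microRNA loci. Counts are per hairpin, so the 5p and 3p arms of a locus cannot be told apart, and a comparison between loci includes how well each microRNA was captured, which was not measured. A read covers a whole mature microRNA, and the order of levels was the same when CPM was divided by hairpin length.

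Of all microRNA reads, 1.61% fell on the 10 loci in replicate 1 (1.60 to 1.63, exact 95% Clopper-Pearson bounds) and 1.77% in replicate 2 (1.76 to 1.78), a mean of 1.69% ± 0.112 (SD, n = 2). Such bounds, and the floors below, reflect counting alone, since the reads carry no molecular identifiers. The 4 detected loci opposite Rtl1 supplied most of it, 89.7% of the members' counts in replicate 1 and 90.7% in replicate 2. The 5 loci that lie before Rtl1 in genome order supplied the rest, 9708 and 10955 counts. Fewer expressing cells and less RNA per cell cannot be told apart in these bulk samples.

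Mir127, which guides cleavage of Rtl1, was the highest of the group, with 6697 CPM in replicate 1 and 7571 CPM in replicate 2. It alone held 42.1% ± 0.873 of the members' counts (SD, n = 2) and ranked 26th and 23rd among all loci of the libraries. Mir431 had 3293 and 3377 CPM, the closest agreement in the group, with a coefficient of variation of 1.79%. Mir434 had 2769 and 3207 CPM, and Mir433 had 1724 and 1929 CPM. Mir431 exceeded Mir434 in both libraries, 3335 ± 59.6 against 2988 ± 310.07 CPM (SD, n = 2), and their ranges over the libraries did not overlap. Mir432, the last of the row, had 0 counts in both libraries. The floor of 3 counts used for it is 0.515 and 0.450 CPM in replicates 1 and 2, an approximate limit and not a maximum.

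At the loci before Rtl1 in genome order the levels were lower than at the 4 detected members opposite Rtl1. None of the 5 reached the level of Mir433 in either library. Mir337 had 852 and 827 CPM, Mir540 had 344 and 373 CPM, and Mir665 had 340.3 and 310.02 CPM. The first loci of the group were its least abundant detected ones. Mir673 had 88.9 and 84.0 CPM, from 518 and 560 counts, and Mir493 had 40.8 and 48.7 CPM, from 238 and 325 counts. From Mir127 to Mir493 the order of the 9 detected loci was the same in both libraries, and no neighbours in that order overlapped in their ranges. The narrowest margins were between Mir540 and Mir665 (ratio of means 1.10) and between Mir431 and Mir434 (1.12). The widest was between Mir665 and Mir673 (3.76). With 2 libraries a permutation test of such a pair could not reach 0.05, so none is given.

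**Figure D1:**
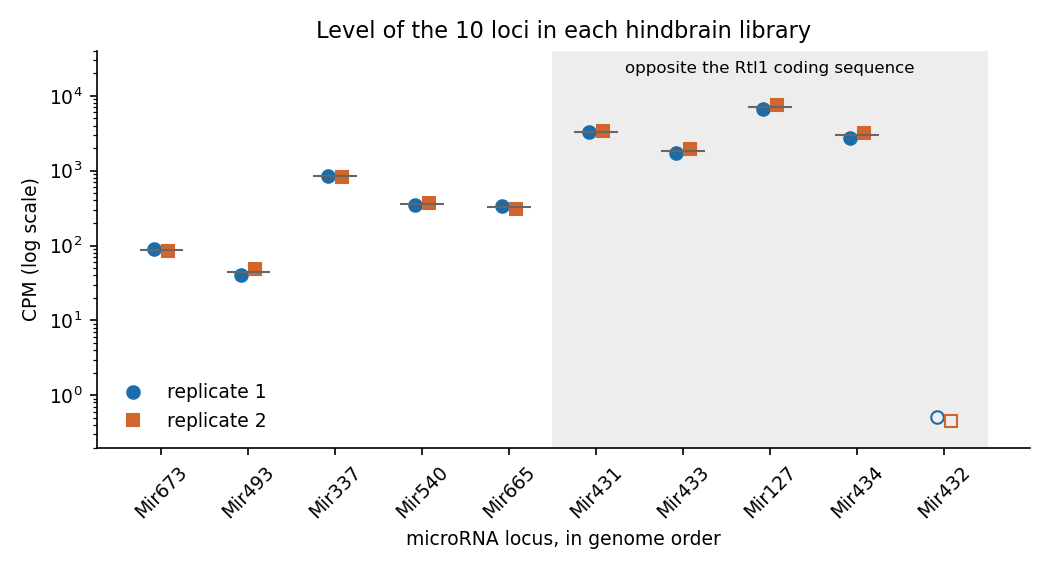
Level of each locus in CPM (log axis), in genome order, with replicate 1 as circles, replicate 2 as squares and the mean as a line. Shading marks the loci opposite Rtl1, where Mir127 was highest at 6697 and 7571 CPM, and open symbols show the floor of 3 counts for Mir432, which had 0 counts.

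Close neighbours were near each other in level in one case and far apart in others. Mir540 and Mir665, 167 bases apart, had the narrowest margin given above. Mir337 and Mir540 are 194 bases apart, and their means of 839.7 ± 17.8 and 358 ± 20.8 CPM (SD, n = 2) differed 2.34-fold. Mir434 and Mir432 are 356 bases apart, with 2988 CPM against 0 counts. Among the 401 detected loci, the 9 members ranked by mean CPM from 23 (Mir127) to 252 (Mir493), with Mir337 at 102. Their median level was 839.7 CPM, beside 45.6 CPM for the 498 loci whose counts in both libraries sum to 10 or more.

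**Figure D2:**
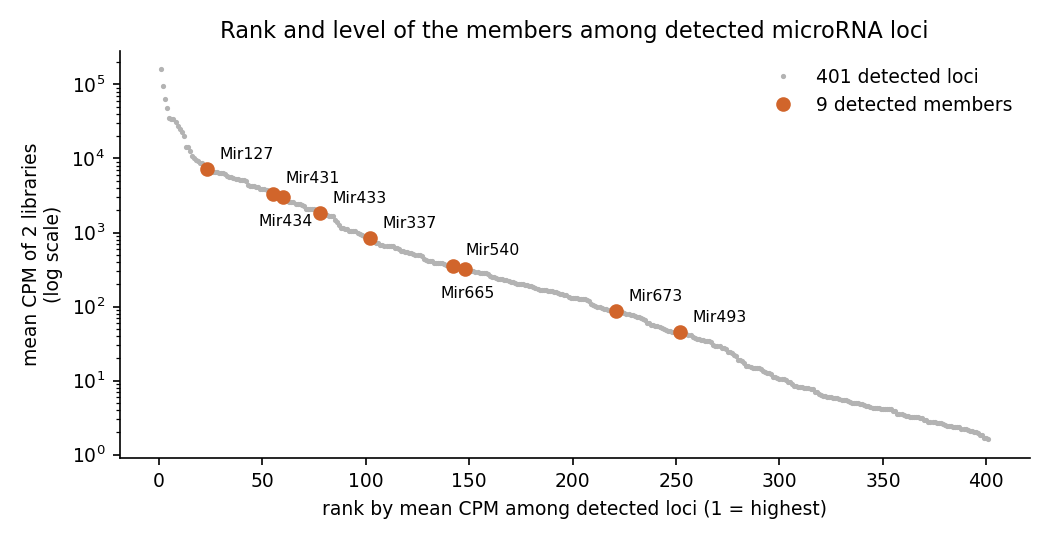
Mean CPM (log axis) against rank for the 401 detected loci in grey and the 9 detected members in orange. The 4 detected loci opposite Rtl1 (Mir127, Mir431, Mir434 and Mir433) sit at ranks 23 to 78, ahead of Mir337 at rank 102 and the other 4 members.

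The loci nearest to Mir127 in level were named by the Euclidean distance of log2 CPM over the 2 libraries, which with 2 points is a measure of level only. They were Mir411 of the distal Dlk1-Dio3 cluster (6242 and 8054 CPM, distance 0.14), Mir143 of smooth muscle (6473 and 6797 CPM, distance 0.16) and Mir30d (6623 and 6608 CPM, distance 0.20).

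Within the domain, the group was the smaller part of the microRNA output. Of 40 listed distal loci from Mir379 to Mir410 and Mir3072, 35 had a row (34 on chromosome 12, and Mir496b on chromosome 19 with 0 counts). The listed loci without a row enter neither the shares nor the order given here. The list drew 7.09% ± 0.626 of the reads on microRNA loci (SD, n = 2), led by Mir487b with 30661 ± 2779 CPM. Mir411 was next by mean at 7148 ± 1281 CPM, and Mir369 followed at 6426 ± 982 CPM (SD, n = 2). Opposite-strand counts of minus-strand rows in the same stretch were left out too. The highest such row had 35212 and 49605 in replicates 1 and 2, beside 33396 and 47472 counts for Mir369. Set against that list, the 10 loci gave 19.5% of the summed counts in replicate 1 (Clopper-Pearson bounds 19.4 to 19.7) and 19.0% in replicate 2 (bounds 18.9 to 19.1). The share was lower in replicate 2 with an odds ratio of 0.969 (two-sided Fisher's exact test of reads, p = 6.88e-11), a difference between these 2 libraries and not between conditions. The share itself depended on single loci and was 29.6% ± 0.431 without Mir487b and 12.2% ± 0.401 without Mir127 (SD, n = 2).

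Of the other microRNA loci listed as neighbours, 8 with a row lie between the start of Meg3 and the end of Rian, and 6 of these were detected. The other two listed, Mir882 and Mir1247, lie past Rian and were not detected. Mir770, which lies inside Meg3 just before the group, had 1436 and 1928 CPM, above Mir673 and Mir493 that follow it. Past the group, Mir341 had 916 and 905 CPM and Mir370 had 1084 and 1215 CPM. Low counts were found at Mir3070a (23 and 39 counts) and Mir1188 (49 and 70 counts). The row named Mir3071 had 475 and 623 CPM on its gene strand, below the 852 and 827 CPM of Mir337. This row lies within the span of Rtl1. It lies opposite Mir136, which has no row, and the version of its identifier in the tables is older than in GENCODE M21, so which of these hairpins gave the reads cannot be told.

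**Figure D3:**
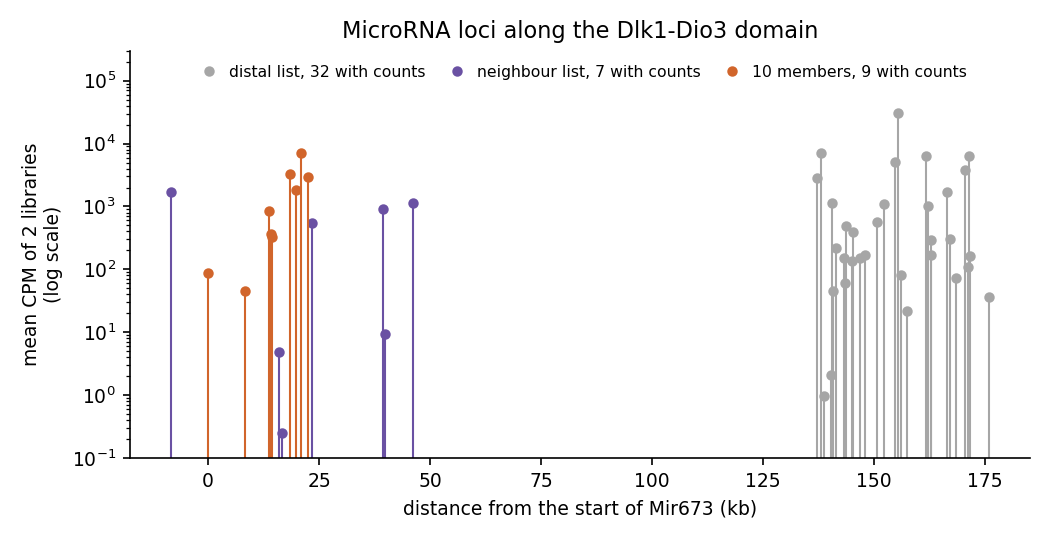
Mean CPM (log axis) of domain loci with counts against distance from the start of Mir673 in kb, with the members in orange, neighbours in purple and distal loci in grey. Levels within the group run from 44.8 CPM at Mir493 to 7134 CPM at Mir127, and Mir487b at 30661 CPM stands highest on the distal side.

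The difference between the libraries was tested per locus with an exact two-sided binomial test of the reads, scaled by TMM (a factor that removes composition differences) and adjusted by Benjamini-Hochberg over 498 loci. Of the 9 members tested, 3 were higher in replicate 2, 2 were lower and 4 did not pass. Over all 498 loci tested, 32.5% were called in either direction and 17.5% as higher in replicate 2. Among the 282 loci that reached 100 counts in replicate 1 and in replicate 2, as all 9 members did, 53.2% were called, so 5 of 9 is near the background for their depth. The median log2 ratio of the 9 was 0.08, beside 0.01 for all loci tested.

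Opposite Rtl1, 3 of the 4 detected loci were higher in replicate 2 by the binomial test. Mir434 had a log2 ratio of 0.17 (exact 95% interval 0.14 to 0.20, edgeR-scaled binomial test, adjusted p = 1.58e-28). Mir127 had 0.13 (0.12 to 0.15, adjusted p = 2.19e-42, same test across all loci with edgeR's TMM factors). Mir433 had 0.12 (0.08 to 0.16). Mir431 did not pass, with -0.01 (-0.03 to 0.02). With library totals in place of TMM it had 0.036 and passed as higher (exact binomial test, adjusted p = 0.0311), so that all 4 were then called higher. With TMM the differences were at most 1.12-fold. With library totals the largest log2 ratio of the 4 was 0.212, at Mir434.

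Before Rtl1 in genome order, the loci called were lower in replicate 2. Mir665 had a log2 ratio of -0.18 (-0.27 to -0.09) and Mir337 had -0.09 (-0.14 to -0.03), which no longer passed with library totals (-0.04). Mir540 with 0.08 (-0.01 to 0.16), Mir673 with -0.12 (-0.30 to 0.05) and Mir493 with 0.21 (-0.03 to 0.46) did not pass. With library totals, Mir540 passed with 0.12. Reads were also summed on each side, a comparison chosen after the values were seen. With TMM, the log2 ratio of the sums was 0.11 opposite Rtl1 and -0.06 before it in genome order. By library totals, the loci before Rtl1 held 0.167% and 0.164% of the counts in replicates 1 and 2, a smaller difference. Those opposite Rtl1 held 1.45% and 1.61%. The share of the Rtl1 side in the members' counts had an odds ratio of 1.13, replicate 2 over replicate 1. No p-value or interval is given for the sums or this share, since the split was picked from these same values.

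**Figure D4:**
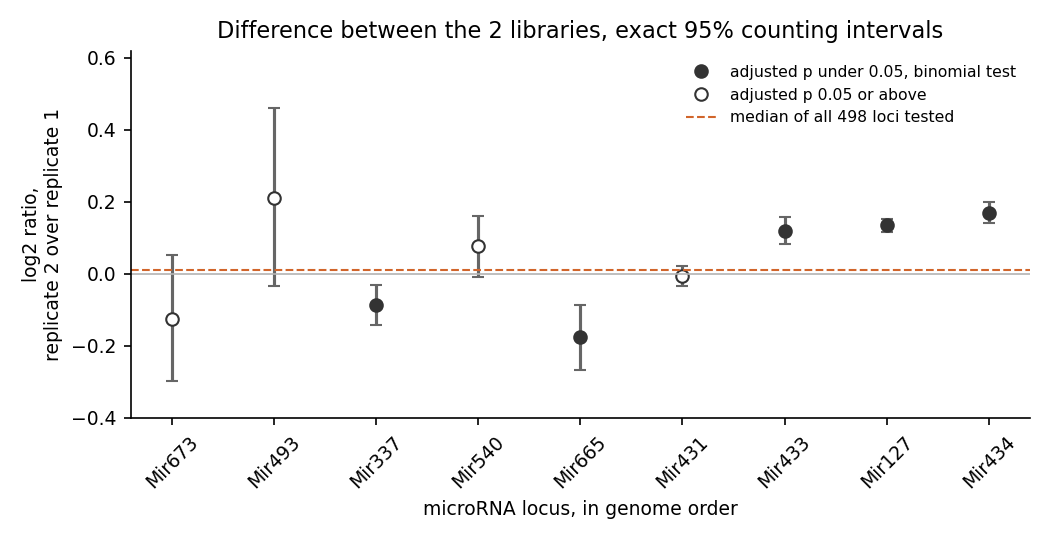
Log2 ratio of replicate 2 over replicate 1 for the 9 detected members in genome order, with exact 95% counting intervals, filled where the binomial test passed. Mir433, Mir127 and Mir434 lie between 0.12 and 0.17, Mir337 and Mir665 lie below 0, and the dashed line is the median of all loci tested, 0.01.

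The binomial test allows for counting error only. With edgeR's common dispersion between the libraries, a coefficient of variation of 10.8%, 0 of the 9 members were called and 0 had an unadjusted p under 0.05, while 1.41% of all loci were called. The members' own coefficients of variation ran from 1.79% (Mir431) to 12.5% (Mir493, where counting error alone gives 6.03%). For Mir127 the coefficient was 8.66%, against 0.477% from counting.

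The neighbouring and distal loci gave the following values in the same test. Of 32 distal loci tested, 11 were higher in replicate 2, 1 was lower and 20 did not pass, with a median log2 ratio of 0.08. The 6 neighbours tested between Meg3 and Rian had a median of 0.31, and 3 passed, all higher in replicate 2, which were Mir770 with 0.38, Mir3071 with 0.35 and Mir370 with 0.12.

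The opposite strand of the members was almost empty. Of the 9 detected members, 8 had 0 opposite-strand reads in both libraries, and so did 90.5% of the 401 detected loci. Mir337 had 1 opposite-strand read of 4967 in replicate 1 and 6 of 5521 in replicate 2, where Mir3544 is annotated. No opposite-strand read was counted at the 5 hairpins that face the Rtl1 coding sequence. The libraries held RNA under 30 nucleotides, so this is no measure of the Rtl1 messenger RNA.

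Replicate 1 had 5826676 gene-strand counts on microRNA loci and replicate 2 had 6667238. Of the marker microRNAs for the labelled tissue, the 2 hindbrain Hox loci summed to 179036 and 140148 CPM. Of 10 neuron and progenitor markers 7 were detected, and the sum was 14835 and 16761 CPM. Mir137 made up 9697 and 10645 CPM of it, and Mir153, Mir128-1, Mir128-2 and Mir9-3 had means from 516 to 2259 CPM. The Mir124a loci and Mir9-2 were low, the highest being Mir124a-1 with 7.55 and 7.95 CPM, and Mir9-1 had no row. Reads with several map positions were left without a locus, which can lower the counts of microRNAs that have several loci. These include Mir124a and Mir9 here, and Mir199a, Mir1a and Mir133a below, so their low counts do not show that the microRNA was absent. Markers of other cell types were detected too. The endothelial marker had 31783 and 36687 CPM, and 2 choroid plexus markers had 2763 and 2158 CPM. Of 5 mesenchymal markers 4 were detected, and the sum was 6849 and 7142 CPM. Mir143 made up 6473 and 6797 CPM of it, while Mir199a-2 had 8.58 and 7.20 CPM. Red cell markers summed to 261 and 373 CPM, the myeloid marker had 194 and 208 CPM, and the pituitary and pancreas marker 682 and 564 CPM. Muscle markers had 14.9 and 16.3 CPM, with Mir1a-1 and Mir133a-1 at 0, and the liver marker had 13.7 and 15.7 CPM. The part of these differences in the members' ratios was not tested.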

How the data were processed

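Each library has a deposited table of unnormalized counts for every microRNA locus, both strands together and each strand apart. Per the deposited file lists, the build was mm10 and the annotation M4. Which aligner and counter were run is not given in the sources. The strand column with 98.0% and 97.8% of locus counts was used. Rows of unassigned reads stayed out of totals and tests. Of 11804816 reads in replicate 1 these were 13.8% unmapped, 33.9% multimapping and 1.99% off the loci on both strands. Of 14348369 in replicate 2 they were 15.9%, 34.3% and 2.26%.

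Symbols and positions came from GENCODE M21 (GRCm38), matched for 1894 of 1973 loci and for all 10 members, 3 of them under an older identifier version. CPM divides by gene-strand totals. Libraries were compared across all loci whose counts sum to 10 or more, by the binomial test at an adjusted p of 0.05, with TMM factors of 0.985 and 1.01 and 0.5 added to counts for ratios. A quasi-likelihood fit has no residual degrees of freedom in 1 group of 2. The test was checked on simulated data that held counting error alone and used library totals, so the check does not cover spread between libraries.

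The text names the 10 members, the 3 loci nearest to the highest member, the 3 highest distal loci, detected neighbours (and the listed ones that lie outside their stated range) and detected loci with a member's seed (there were 0). Some of the marker microRNAs are named too. Members, lists and tests were chosen with earlier results of these data known. Alternatives covered the strand, denominator, scaling, filter, pseudocount, list membership and each library left out. Scaling and the dispersion test used edgeR 4.0.16 and DESeq2 1.42.0 in R 4.3.3, folding used RNAfold 2.7.2, and the rest used scipy 1.17.1 and pandas 2.3.3 in Python 3.11.15.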

Additional observations from a re-analysis of the deposited data

Results flagged for a closer look

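One signal lay outside the gene-strand counts. At Mir337, 6 opposite-strand reads were counted in replicate 2 and 1 in replicate 1. The 6 lie above the floor of 3 counts used for a count of 0. These reads were 0.109% of both strands in replicate 2 (Clopper-Pearson bounds 0.0399 to 0.236) and 0.0201% in replicate 1 (bounds 0.00051 to 0.112). Mir3544 is annotated there on the minus strand and has no row of its own.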

How the results depend on the processing

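The order of the 10 levels was the same under each alternative tried: both-strand counts, TMM library sizes, all reads as denominator, hairpin length and either library alone. The summed share of 1.69% was 0.810% of all reads and 2.02% without the locus with the highest count, and ran from 1.61% to 1.77% with a library left out. Their share among the domain's counts, 19.3% ± 0.350 (SD, n = 2), was 18.4% with the neighbours added, 29.6% without Mir487b and 12.2% without Mir127. It was 16.9% when opposite-strand counts of 4 minus-strand rows were credited to the distal side, an alternative chosen after the data were seen, and it ran from 19.0% to 19.5% with a library left out. The share stayed lower in replicate 2 in each alternative that could compare them, with odds ratios from 0.948 to 0.971. The 5 members called were 6 with library totals (5 higher, 1 lower). They were 0 with edgeR's common dispersion, which was estimated from these same 2 libraries. The number stayed 5 with DESeq2 size factors, upper quartile factors and no filter. It also stayed 5 with a summed count of at least 100, a pseudocount of 1 and both-strand counts. With library totals, Mir431 turned from -0.01 to 0.036 and gained a call, Mir540 gained one and Mir337 lost one. The cause of these changes was not tested. The opposite-strand share of Mir337 ran from 0.0201% to 0.109% with a library left out. No paired analysis was possible because the series has 1 group. Loci under 100 CPM, Mir673 and Mir493, rest on 238 to 560 counts.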
